A study of Homo sapiens with 4 samples.

Results

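Nuclear receptors other than the retinoic acid and retinoid X receptors were followed through the differentiation of SH-SY5Y cells, a cloned human neuroblastoma line of sympathoadrenal origin. The set was a fixed list of 39 gene symbols, each matched by name to 1 row among the 23576 rows of the authors' deposited table. Differentiated cells were harvested at day 16. They had received 10 µM retinoic acid for 7 days in reduced serum, then the neurotrophin BDNF (brain-derived neurotrophic factor, 20 ng/mL) for 9 days with no serum. Undifferentiated cells, grown with serum and neither agent, represent day 0. There were 2 libraries per group, and the effects of retinoic acid, BDNF, serum withdrawal and time in culture cannot be told apart in this design. Each gene has a single FPKM (sequenced fragments corrected for transcript length and library size) for each group, hence neither the depth nor the spread of the libraries is known. Fold changes are differentiated over undifferentiated, their error is an implied standard error, the size of the log2 fold over that of the deposited test statistic, and a gene is called where the authors' q is below 0.05. The labels do not say whether the libraries came from separate cultures, so these errors and q-values may measure technical spread.

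Nuclear receptors are transcription factors with a zinc finger DNA-binding domain and a pocket that in many of them binds a small fat-soluble ligand, such as a steroid, thyroid hormone, oxysterol or fatty acid. Several bind DNA as dimers with a retinoid X receptor, others as homodimers or as monomers, and the core element that many of them share is AGGTCA. Without an activating ligand many recruit corepressors of the NCOR family, and with it coactivators of the NCOA family and the Mediator subunit MED1. Those with no known natural ligand are called orphan receptors, and some, such as the COUP-TF proteins, are known from neural crest and brain development.

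Differentiated cells had far less RORB and ESRRG mRNA, a retinoid-related and an estrogen-related orphan receptor. The authors' q also called NR1D2 and NR2F6 lower, but neither was called relative to the median fold of all genes or under any other scaling tried. In FPKM as deposited, RORB fell to 1.97% and ESRRG to 11.1% of the undifferentiated level. The other 15 receptors that the authors tested were not called, and 0 members were called higher. The heme-binding repressor gene NR1D2, the COUP-TF-related repressor gene NR2F6 and the COUP-TF gene NR2F1 had the highest receptor FPKM in differentiated cells, whereas ESRRG had the highest in undifferentiated cells.

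Of the 39 genes, 19 were tested by the authors and 20 were not. Among the 19, the authors' deposited table called 4 lower and 0 higher. Over all 12810 tested genes the authors' deposited table called 30.4%, 28.0% lower and 2.43% higher, so that the 21.1% of tested receptors called lower is no larger a share than that of all genes. At an unadjusted p below 0.05, 6 receptors (NR2C1 and NR2C2 besides the 4) were lower and 0 higher in the authors' deposited table, against 37.3% of all tested genes lower and 3.59% higher. The count of 6 among 19 is thus below the share of all genes too. The median log2 fold change was -0.53 over the 19 receptors and -0.58 over all 12750 genes with a usable fold. Log2 folds in this table are thus not centred on 0, so a second test asked whether a gene departs from the median fold, using a normal p from the implied error, adjusted by Benjamini-Hochberg over 12750 genes. RORB and ESRRG lay below the median gene, and 0 receptors lay above it, against 4.46% of all genes below and 5.17% above (9.63% in all). At an unadjusted p below 0.05, RORA was the 1 receptor of 19 above it, where 10.4% of all genes were, which is no result about RORA. Below the median gene, NR1D2 had an unadjusted p of 0.0335 and an adjusted p of 0.193 by the normal test, so it was not called. Rescaling FPKM to an equal sum in both groups raised every log2 fold by 0.78, an equal sum without small RNAs raised it by 0.69, and quantile normalization raised it by a median of 0.58. The authors' deposited table has 311 genes called higher and 3582 lower in all, counts that became 1003 and 321 (7.87% and 2.52% of genes), 814 and 413 (6.38% and 3.24%), and 596 and 515 (4.67% and 4.04%) under these scalings. Among the receptors, ESRRG and RORB were called lower under each of the 3 scalings and NR1D2 and NR2F6 under none of them. Calls under the scalings came from the same normal test and implied errors as the comparison with the median gene. Only the shift of the folds differed, so they are not separate evidence.

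**Figure D1:**
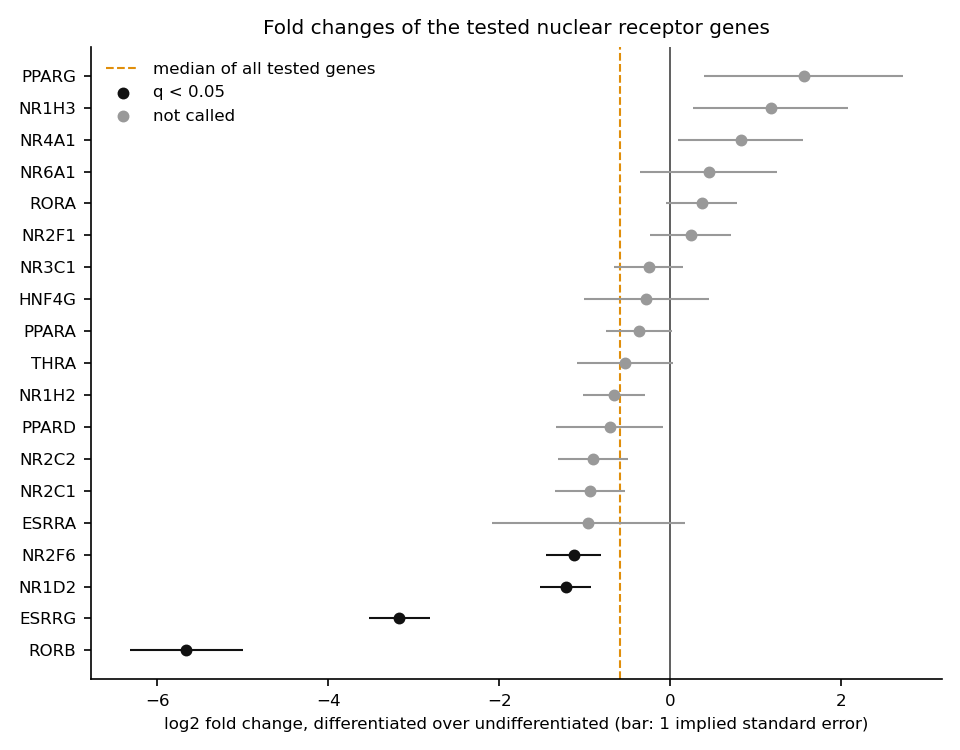
Log2 fold change (x axis, differentiated over undifferentiated) of the 19 nuclear receptor genes tested by the authors, with bars of 1 implied standard error to each side. Black points are called at q below 0.05 and grey points are not. The dashed line is the median of all tested genes, -0.58, and RORB (-5.66) and ESRRG (-3.17) lie far to its left.

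RORB encodes the retinoid-related orphan receptor beta, a monomer-binding activator expressed in the brain and retina. The gene lies at chromosome 9, 77112252 to 77302117 (hg19). Its level was 0.287 FPKM in differentiated cells and 14.6 FPKM in undifferentiated cells in the authors' deposited table. With a log2 fold of -5.66 there, and an implied standard error of 0.662, the authors' deposited table lists its q at 0. Among the 12750 genes with a usable fold, 1 had a lower log2 fold. It lay below the median gene with an adjusted p of 7.75e-12 by the normal test. By level it stood 13004th of all rows in differentiated cells and 3799th in undifferentiated cells.

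A RefSeq promoter table (GRCh38.p14; windows from 250 bases before to 50 after each start) held 2 starts for RORB, 8 for ESRRG and 2 for NR1D2. They are shown because these 3 genes were called lower. The motifs searched, on both strands, were AGGTCA, the DR5 element bound by retinoic acid receptor dimers (AGGTCA repeated after any 5 bases), the monomer site of ROR and REV-ERB proteins (AGGTCA directly after AANT), and the E-box CACGTG. The DR5 and monomer sites contain AGGTCA and so overlap with it. Matches are in capitals, and AGGTCA on the opposite strand reads TGACCT. Of ESRRG, the 2 windows with a match are given, and of NR1D2 the 1 window with a match.
RORB, chr9:74497085-74497384, plus strand: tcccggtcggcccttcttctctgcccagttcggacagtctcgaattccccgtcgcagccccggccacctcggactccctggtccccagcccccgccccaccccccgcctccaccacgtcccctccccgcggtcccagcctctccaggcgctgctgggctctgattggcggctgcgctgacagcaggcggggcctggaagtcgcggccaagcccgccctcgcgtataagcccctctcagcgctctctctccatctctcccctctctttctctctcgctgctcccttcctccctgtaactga
RORB, chr9:74615284-74615583, plus strand: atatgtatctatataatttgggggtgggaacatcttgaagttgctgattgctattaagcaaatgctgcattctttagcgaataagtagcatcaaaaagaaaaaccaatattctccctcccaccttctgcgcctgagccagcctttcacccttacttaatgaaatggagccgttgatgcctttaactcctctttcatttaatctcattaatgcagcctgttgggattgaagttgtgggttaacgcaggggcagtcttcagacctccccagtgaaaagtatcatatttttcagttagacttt
ESRRG, chr1:217076943-217077242, minus strand: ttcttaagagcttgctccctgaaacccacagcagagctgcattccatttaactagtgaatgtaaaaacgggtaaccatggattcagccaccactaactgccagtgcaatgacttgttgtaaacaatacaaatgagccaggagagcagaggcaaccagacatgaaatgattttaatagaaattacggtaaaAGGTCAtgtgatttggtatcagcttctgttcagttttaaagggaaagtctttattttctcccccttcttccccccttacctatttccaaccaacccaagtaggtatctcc
ESRRG, chr1:217078238-217078537, minus strand: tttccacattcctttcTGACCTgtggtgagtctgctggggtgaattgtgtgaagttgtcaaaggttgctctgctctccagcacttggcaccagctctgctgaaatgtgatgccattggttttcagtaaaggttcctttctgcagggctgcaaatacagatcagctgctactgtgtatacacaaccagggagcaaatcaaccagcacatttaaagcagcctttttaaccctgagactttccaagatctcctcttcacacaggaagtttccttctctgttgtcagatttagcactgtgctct
NR1D2, chr3:23945871-23946170, plus strand: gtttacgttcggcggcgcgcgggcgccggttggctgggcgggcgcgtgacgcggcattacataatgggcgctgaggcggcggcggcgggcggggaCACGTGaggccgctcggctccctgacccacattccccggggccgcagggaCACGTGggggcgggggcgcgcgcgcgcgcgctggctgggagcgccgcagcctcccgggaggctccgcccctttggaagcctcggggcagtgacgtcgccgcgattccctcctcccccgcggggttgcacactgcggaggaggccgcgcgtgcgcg

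The RORB windows held no match to any of these motifs. The first is rich in G and C (69.0%, with 24 CpG dinucleotides) and the second is not (40.7%, with 4), against medians of 58.7% and 14 over all 35116 windows of the table. The NR1D2 window shown held CACGTG 155 and 105 bases before the start, and the other NR1D2 window held no match. The ESRRG windows held AGGTCA 60 bases before 1 start and its reverse complement 234 bases before another. The AGGTCA element was found in 13.8% of all windows and in 15.7% of the 83 windows of 35 receptor genes. For the E-box these shares were 7.26% and 9.64%. The receptor windows with AGGTCA came from 8 genes and those with the E-box from 6. Some windows of the same gene overlap, so a single match can be counted more than once. The DR5 repeat stood in 0.0057% and the monomer site in 0.168% of all windows, and in 0 receptor windows. Windows for NR2F6, VDR, NR4A2 and HNF4G were not used here. A match in these windows is a description and not a bound site.

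RORA, the paralogue of RORB and a core activator of the circadian clock, was listed at 1.47 FPKM in differentiated cells and 1.14 FPKM in undifferentiated cells in the authors' deposited table, with a log2 fold of 0.37 (implied standard error 0.413, q = 0.528). The log2 fold of RORB less that of RORA was -6.03, with a combined implied error of 0.780. RORB mRNA per length was 0.195 times that of RORA in differentiated cells and 12.8 times that of RORA in undifferentiated cells. The paralogue with the higher level therefore differs between the groups.

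The REV-ERB proteins bind the same DNA element as the ROR proteins and repress through it. NR1D2, encoding REV-ERB beta, lies at chromosome 3, 23986751 to 24022109 (hg19). It was listed at 13.1 FPKM in differentiated cells and 30.6 FPKM in undifferentiated cells in the authors' deposited table, where the log2 fold was -1.22 (implied standard error 0.300, q = 0.000552). Set against the median gene, NR1D2 had an adjusted p of 0.193 by the normal test, and under the 3 other scalings 0.321 to 0.432. NR1D1, encoding REV-ERB alpha, was not tested and stood at 0.226 FPKM in differentiated cells and 0.317 FPKM in undifferentiated cells in the authors' deposited table. NR1D2 exceeded NR1D1 58.0 times in differentiated cells and 96.4 times in undifferentiated cells. The listed locus of NR1D1 is also that of THRA, so fragments of these overlapping genes are uncertain.

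The estrogen-related receptors are orphan receptors that drive genes of mitochondrial energy metabolism. ESRRG lies at chromosome 1, 216676588 to 217311097 (hg19). It was listed at 4.18 FPKM in differentiated cells and 37.7 FPKM in undifferentiated cells in the authors' deposited table, where the log2 fold was -3.17 (implied standard error 0.356, q listed at 0). It lay below the median gene with an adjusted p of 1.32e-10 by the normal test, and 54 of all genes with a usable fold had a lower one. ESRRA, its more widely expressed paralogue, stood at 3.76 FPKM in differentiated cells and 7.30 FPKM in undifferentiated cells in the authors' deposited table (log2 fold -0.96, q = 0.551). The implied standard error of ESRRA was 1.13, against a median of 0.473 over the 19 receptors. Its listed locus is shared with TRMT112, which had 460 FPKM in differentiated cells and 687 FPKM in undifferentiated cells in the authors' deposited table. The ESRRG level was 1.11 times that of ESRRA in differentiated cells and 5.16 times in undifferentiated cells. The folds of the pair differed by -2.21 on the log2 scale with a combined implied error of 1.18. ESRRB, the pluripotency-associated member, was listed at 0 in undifferentiated cells.

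**Figure D2:**
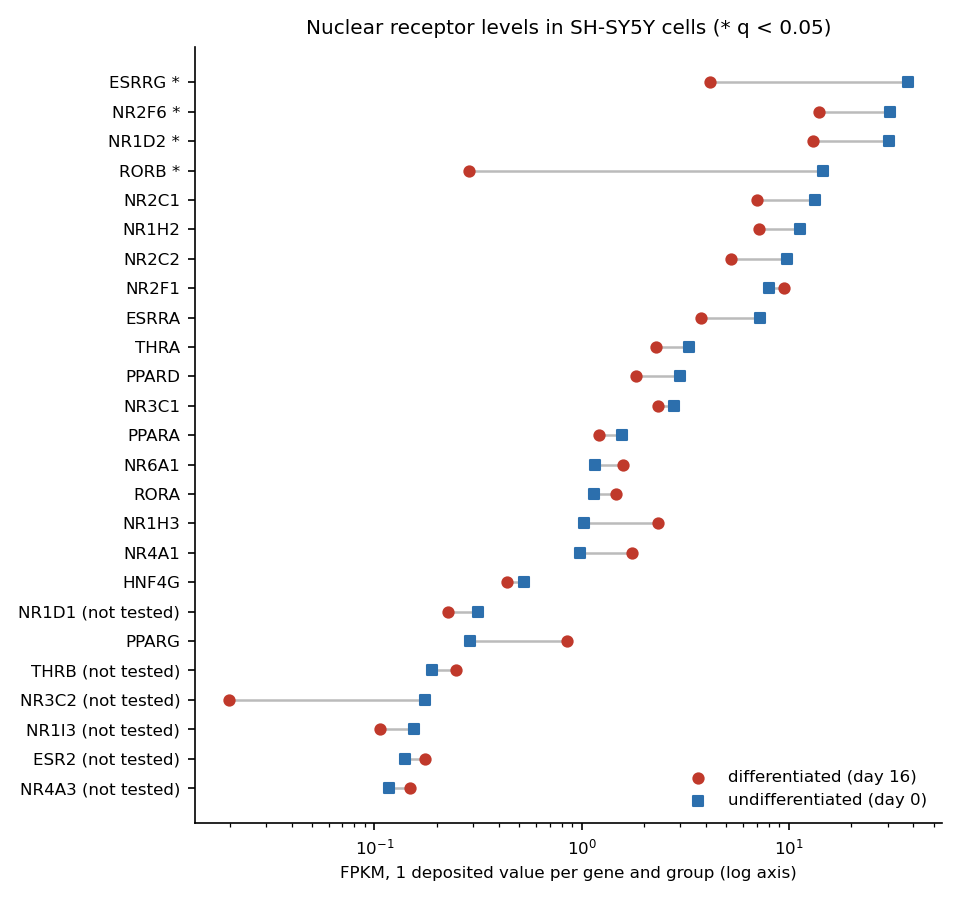
FPKM (x axis, log scale) of the 25 nuclear receptor genes with at least 0.1 FPKM in either group, ordered by their level in undifferentiated cells. Red circles are differentiated and blue squares undifferentiated cells, each 1 deposited value with no replicate spread. The widest gap between the groups is that of RORB, at 0.287 FPKM in differentiated and 14.6 FPKM in undifferentiated cells.

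The classical steroid receptors were low in both groups. NR3C1, the glucocorticoid receptor gene, was listed at 2.33 FPKM in differentiated cells and 2.78 FPKM in undifferentiated cells in the authors' deposited table (log2 fold -0.25, implied standard error 0.405, q = 0.671). NR3C2, which encodes the mineralocorticoid receptor, was not tested. It stood at 0.0198 FPKM in differentiated cells and 0.176 FPKM in undifferentiated cells in the authors' deposited table. The estrogen receptor gene ESR2 was not tested either, with 0.175 FPKM in differentiated cells and 0.141 FPKM in undifferentiated cells in the authors' deposited table. For ESR1 the authors' deposited table lists 0.0280 FPKM in differentiated cells, and for the progesterone receptor gene PGR 0.00770 FPKM, with both at 0 in undifferentiated cells. NR3C1 was thus the only receptor above 1 FPKM among NR3C1, NR3C2, ESR1, ESR2 and PGR, in either group.

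Of the receptors related to NR2F1, NR2F6 was called lower. NR2F6 lies at chromosome 19, 17342694 to 17356151 (hg19), and was listed at 14.0 FPKM in differentiated cells and 30.7 FPKM in undifferentiated cells in the authors' deposited table. The log2 fold in the authors' deposited table was -1.13 (implied standard error 0.319, q = 0.00300). NR2F6 had an adjusted p of 0.339 relative to the median gene by the normal test, and 0.493 to 0.604 under the other scalings. NR2F1, or COUP-TFI, a regulator of neural crest and cortical identity, was listed at 9.44 FPKM in differentiated cells and 8.01 FPKM in undifferentiated cells in the authors' deposited table (log2 fold 0.24, implied standard error 0.473, q = 0.742). Its order among the receptors by level was 3rd in differentiated cells and 8th in undifferentiated cells. The locus listed for NR2F1 also holds FAM172A, at 13.1 FPKM in differentiated cells and 19.4 FPKM in undifferentiated cells in the authors' deposited table. NR2F2, or COUP-TFII, was not tested, and the authors' deposited table lists it at 0.0376 FPKM in differentiated cells and 0.0125 FPKM in undifferentiated cells. Of the COUP-TF pair, the mRNA detected well above 0 was therefore that of NR2F1 in both groups.

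The testicular orphan receptor genes NR2C1 and NR2C2, whose products bind direct repeats as a dimer, had nearly equal folds. NR2C1 was listed at 7.02 FPKM in differentiated cells and 13.4 FPKM in undifferentiated cells in the authors' deposited table (log2 fold -0.93, implied standard error 0.408, q = 0.0664). NR2C2 was listed at 5.26 FPKM in differentiated cells and 9.85 FPKM in undifferentiated cells in the authors' deposited table (log2 fold -0.91, implied standard error 0.408, q = 0.0752). Neither was called, and their folds differed by -0.03 on the log2 scale with a combined implied error of 0.577. NR2C1 had 1.34 times the FPKM of NR2C2 in differentiated cells and 1.36 times in undifferentiated cells. The locus listed for NR2C2 also holds FGD5-AS1 and MRPS25. HNF4G, a fatty-acid-binding receptor gene of the gut, stood at 0.435 FPKM in differentiated cells and 0.528 FPKM in undifferentiated cells in the authors' deposited table (q = 0.808). It had the lowest level in its higher group of the 19 tested receptors, and the highest such level among the untested ones was the 0.317 FPKM of NR1D1.

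The receptors for thyroid hormone, sterols and fatty acids were not called. NR1H2, the broadly expressed liver X receptor gene for oxysterols, was listed at 7.15 FPKM in differentiated cells and 11.3 FPKM in undifferentiated cells in the authors' deposited table (log2 fold -0.66, implied standard error 0.361, q = 0.154). NR1H3, the other liver X receptor gene, was listed at 2.33 FPKM in differentiated cells and 1.03 FPKM in undifferentiated cells in the authors' deposited table (log2 fold 1.17, implied standard error 0.907, q = 0.333). NR1H2 had 3.07 times the FPKM of NR1H3 in differentiated cells and 10.9 times in undifferentiated cells. The folds of these paralogues differed by -1.83 on the log2 scale with a combined implied error of 0.976, and NR1H3 shares its listed locus with ACP2. NR1H4, the bile acid receptor gene, was listed at 0 in both groups.

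Of the peroxisome proliferator-activated receptors, which sense fatty acids, PPARD was listed at 1.84 FPKM in differentiated cells and 3.00 FPKM in undifferentiated cells in the authors' deposited table (q = 0.404). PPARA stood at 1.21 FPKM in differentiated cells and 1.57 FPKM in undifferentiated cells in the authors' deposited table (q = 0.493). PPARG, the receptor of fat cell differentiation, had the highest log2 fold of the 19 receptors, 1.56, and also the largest implied standard error, 1.16. It was listed at 0.850 FPKM in differentiated cells and 0.288 FPKM in undifferentiated cells in the authors' deposited table (q = 0.312). PPARG thus had 0.463 times the FPKM of PPARD in differentiated cells and 0.0959 times in undifferentiated cells, with a difference in log2 folds of 2.27 and a combined implied error of 1.32.

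THRA, a thyroid hormone receptor gene, was listed at 2.29 FPKM in differentiated cells and 3.31 FPKM in undifferentiated cells in the authors' deposited table (log2 fold -0.53, implied standard error 0.563, q = 0.499). THRB was not tested and stood at 0.248 FPKM in differentiated cells and 0.189 FPKM in undifferentiated cells in the authors' deposited table. THRA had 9.21 times the FPKM of THRB in differentiated cells and 17.5 times in undifferentiated cells. VDR, the vitamin D receptor gene, and NR1I2, the pregnane X receptor gene, were below 0.1 FPKM in both groups. NR1I3, the constitutive androstane receptor gene, was not tested and stood at 0.106 FPKM in differentiated cells and 0.155 FPKM in undifferentiated cells in the authors' deposited table. Its locus is shared with TOMM40L.

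The NR4A receptors are immediate early orphan receptors, induced by growth factors and neuronal activity. NR4A1 was listed at 1.75 FPKM in differentiated cells and 0.988 FPKM in undifferentiated cells in the authors' deposited table (log2 fold 0.82, implied standard error 0.728, q = 0.406). NR4A3 was not tested, with 0.148 FPKM in differentiated cells and 0.117 FPKM in undifferentiated cells in the authors' deposited table. NR4A2, needed in midbrain dopamine neurons, was listed at 0.0132 FPKM in differentiated cells and 0 in undifferentiated cells in the authors' deposited table. NR6A1, the germ cell nuclear factor gene, was listed at 1.59 FPKM in differentiated cells and 1.17 FPKM in undifferentiated cells in the authors' deposited table (log2 fold 0.45, implied standard error 0.799, q = 0.707). The locus listed for NR6A1 also holds MIR181A2HG, at 1.76 FPKM in differentiated cells and 5.42 FPKM in undifferentiated cells in the authors' deposited table. Of this group NR4A1 and NR6A1 alone exceeded 1 FPKM in either group.

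The 20 untested receptors all stood at or below 0.317 FPKM, and 14 of them were under 0.1 FPKM in both groups, the highest value being 0.0398 FPKM for NR2E3, a photoreceptor regulator. Also below 0.1 FPKM were NR2E1 (TLX), a receptor of neural stem cells, HNF4A, a regulator of liver genes, and NR5A1 (steroidogenic factor) with its relative NR5A2. NR0B1 (DAX1), a repressor of NR5A1, and NR1H4 were listed at 0 in both groups. ESR1, ESRRB, HNF4A, NR4A2, NR5A1, NR5A2 and PGR, 7 in all, were listed at 0 in undifferentiated cells and at 0.00701 to 0.0295 FPKM in differentiated cells, and 0 receptors showed the opposite. Over all rows of the table, 2796 were listed at 0 in undifferentiated cells alone and 320 in differentiated cells alone. Of untested genes with unequal values, the differentiated value was the higher one in 83.3% of receptors (15 genes) and in 70.9% of all rows. The 3 untested receptors lower in differentiated cells were NR1D1, NR1I3 and NR3C2. This leaning of low values towards differentiated cells runs across the table, so an entry above 0 in 1 group is not read here as a change of these receptors.

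**Figure D3:**
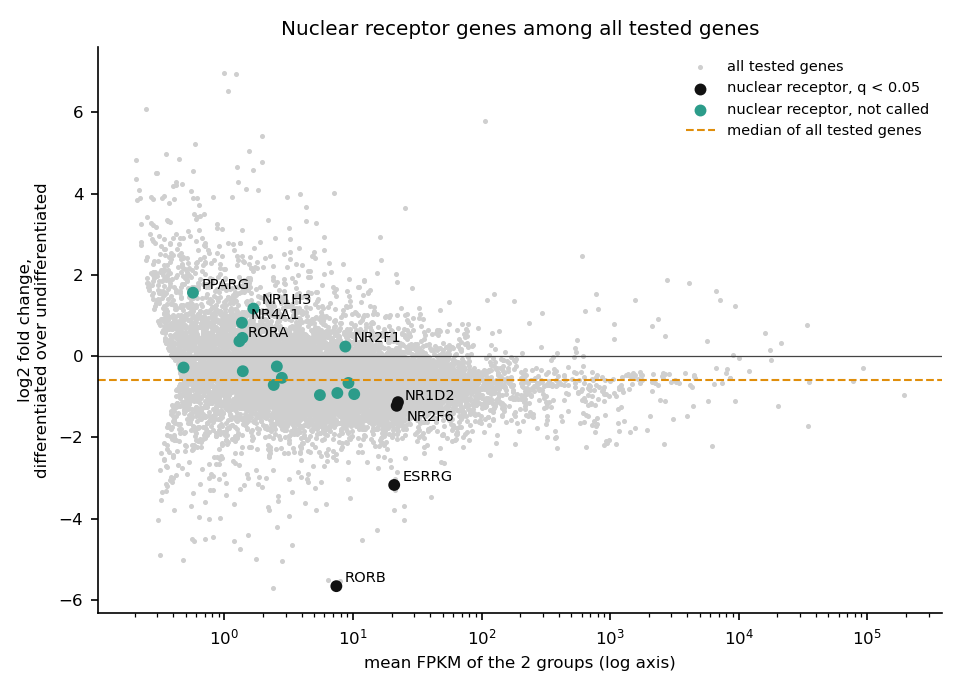
Log2 fold change (y axis, differentiated over undifferentiated) against mean FPKM of the 2 groups (x axis, log scale) for the 12750 tested genes with a usable fold (grey) and the 19 tested receptors (black where called, green where not). RORB and ESRRG lie at the lower edge of the cloud, and NR1D2 and NR2F6 within it.

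Summed over the 39 genes, receptor mRNA per length was 81.5 FPKM in differentiated cells and 180 FPKM in undifferentiated cells. Most of this difference lay in the 4 called genes, which summed to 31.6 FPKM in differentiated cells and 114 FPKM in undifferentiated cells. They were picked as lower on these same values, so their part in the difference is a description and no separate result. The other 35 summed to 49.9 FPKM in differentiated cells and 66.8 FPKM in undifferentiated cells, an order that turned under each of the 3 scalings to 85.8, 80.6 and 60.9 FPKM in differentiated cells against 66.8, 66.8 and 56.6 FPKM in undifferentiated cells. The sum over all 39 stayed lower in differentiated cells under each of them, at 102 to 140 FPKM against 149 to 180 FPKM in undifferentiated cells. The called genes therefore made up 38.8% of the receptor FPKM in differentiated cells and 63.0% in undifferentiated cells. ESRRG alone held 5.13% in differentiated cells and 20.9% in undifferentiated cells, and RORB 0.353% and 8.07% in the same groups. NR2F1 held 11.6% in differentiated cells and 4.44% in undifferentiated cells, whereas the share of NR1D2 was 16.1% and 17.0% and that of NR2F6 17.2% and 17.0%. At least 5 FPKM was reached by 6 receptors in differentiated cells and by 9 in undifferentiated cells, and at least 1 FPKM by 16 in each group. In differentiated cells the order by level was NR2F6, NR1D2, NR2F1, NR1H2, NR2C1, NR2C2, ESRRG and ESRRA. In undifferentiated cells it was ESRRG, NR2F6, NR1D2, RORB, NR2C1, NR1H2, NR2C2, NR2F1 and ESRRA. Without values per library, it was not tested which neighbours in these orders differ. Of the 19 tested receptors 13 had a negative log2 fold, of which 6 took a positive sign with an equal sum, 5 with an equal sum without small RNAs and 1 with quantile normalization.

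**Figure D4:**
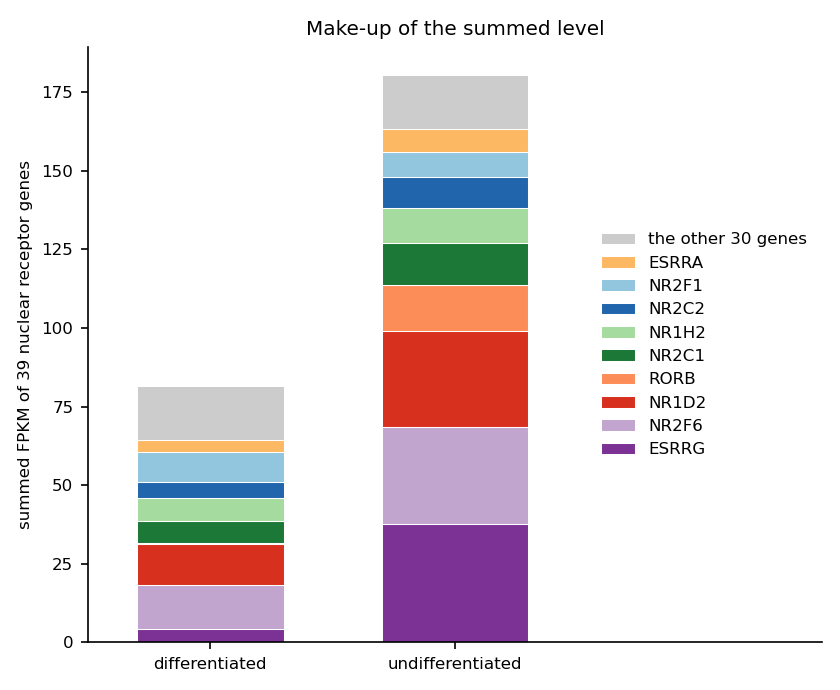
Summed FPKM of the 39 nuclear receptor genes (y axis, from 0) in differentiated (left) and undifferentiated cells (right), stacked by gene for the 9 receptors with at least 5 FPKM in undifferentiated cells and in grey for the rest. The bar reaches 81.5 FPKM in differentiated and 180 FPKM in undifferentiated cells, and the ESRRG segment is 4.18 FPKM in differentiated and 37.7 FPKM in undifferentiated cells.

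Retinoid X receptors are the dimer partners of the NR1H, PPAR, thyroid hormone and vitamin D receptors. RXRA was listed at 0.355 FPKM in differentiated cells and 2.64 FPKM in undifferentiated cells in the authors' deposited table, where the log2 fold was -2.90 (implied standard error 0.626, q = 6.84e-05). RXRG was listed at 0.0278 FPKM in differentiated cells and 0 in undifferentiated cells in the authors' deposited table. The row of RXRB, listed at 0.00747 FPKM in differentiated cells and 0 in undifferentiated cells in the authors' deposited table, lies on an alternative haplotype contig of chromosome 6, so its level is uncertain. Among the retinoic acid receptors, RARB rose to 7.87 FPKM in differentiated cells, against 0.782 FPKM in undifferentiated cells, in the authors' deposited table. RARA (2.58 FPKM in differentiated and 3.33 FPKM in undifferentiated cells) and RARG (8.83 and 11.5 FPKM in the same groups) were not called in the authors' deposited table.

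Genes for the cofactors and chaperones of nuclear receptors were called lower more often than higher, as were genes at large, though few of these calls held under the other scalings. Of 11 tested coactivator genes the authors' deposited table called 5 lower and 0 higher, with a median log2 fold of -0.66, against 28.0% called lower, 2.43% called higher and a median of -0.58 over all tested genes. They included PPRC1 (-1.44), MED1 (-1.36) and the arginine methyltransferase gene PRMT1 (-1.23), all log2 folds from the authors' deposited table. Of the 11, 0 lay apart from the median gene and 0 were called under the other scalings, where 7, 6 and 3 of their folds were positive. Of 11 tested corepressor genes 6 were called lower and 0 higher in the authors' deposited table (28.0% and 2.43% of all genes), with a median log2 fold of -0.73. They included NCOR1, at 8.22 FPKM in differentiated cells and 19.3 FPKM in undifferentiated cells in the authors' deposited table, TBL1X (log2 fold -1.23) and RCOR1 (-1.15). Again 0 lay apart from the median gene and 0 were called lower under the scalings, while ATN1 was called higher with both equal sums. The authors' deposited table called all 11 steroid receptor chaperone genes lower, against 28.0% of all genes, with a median log2 fold of -1.03. Each chaperone gene had a mean of at least 5 FPKM. Over all genes at that level, with p adjusted among them alone, 47.6% were called lower and the median log2 fold was -0.69. Below the median gene lay 3 of the 11 chaperone genes, against 4.46% of all genes, namely HSPA8, FKBP4 and HSP90AA1. HSPA8, the constitutive heat shock protein 70 gene, was listed at 630 FPKM in differentiated cells and 1918 FPKM in undifferentiated cells in the authors' deposited table. With an equal sum 2 of the 11 chaperone folds became positive, and 1 under each of the other 2 scalings. Calls were then 1 (HSPA8), 2 and 2 (HSPA8 and FKBP4).

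Target genes of several receptors were measured as well, and their counts stand beside 28.0% of all tested genes called lower and 2.43% called higher. Of 8 tested glucocorticoid receptor targets the authors' deposited table called 3 lower and 0 higher. SGK1, a kinase gene, was listed at 0.336 FPKM in differentiated cells and 15.6 FPKM in undifferentiated cells in the authors' deposited table (log2 fold -5.54, q = 4.21e-08), and NFKBIA and the chaperone gene FKBP5 had folds of -1.23 and -1.22. Of the 3, SGK1 alone lay below the median gene. Of 6 tested liver X receptor targets 2 were called lower and 0 higher in the authors' deposited table, the ubiquitin ligase gene MYLIP (-1.51) and the desaturase gene SCD (-0.90). Of 8 tested PPAR targets, the authors' deposited table called ACADVL higher and 2 others lower. ACADVL, a fatty acid oxidation enzyme gene, rose to 34.4 FPKM in differentiated cells, against 19.4 FPKM in undifferentiated cells, in the authors' deposited table (log2 fold 0.83, q = 0.0119), and lay above the median gene. The lipid droplet gene PLIN2 (-1.24) and the oxidation enzyme gene ACADM (-0.89) were the lower ones, with log2 folds from the authors' deposited table. With so few genes a list, these counts lie near the share of all genes and are no result about the targets.

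Of the clock genes that ROR proteins activate and REV-ERB proteins repress, 2 of 4 tested were called lower and 0 higher in the authors' deposited table, beside 28.0% of all genes lower and 2.43% higher. ARNTL, which encodes the clock activator BMAL1, was listed at 1.14 FPKM in differentiated cells and 6.68 FPKM in undifferentiated cells in the authors' deposited table, where the log2 fold was -2.55 (implied standard error 0.613, q = 0.000412). ARNTL lay below the median gene by the normal test. CLOCK, whose product pairs with BMAL1 on E-boxes, was listed at 2.49 FPKM in differentiated cells and 6.23 FPKM in undifferentiated cells in the authors' deposited table, with a q of 0.000637, but it was not called relative to the median gene (adjusted p = 0.156). Of 6 tested estrogen receptor targets 3 were called lower and 0 higher in the authors' deposited table, again beside 28.0% and 2.43% of all genes. They were MYB (-2.39), GREB1 (-1.32) and XBP1 (-0.68), of which MYB lay below the median gene. The receptor genes ESR1 (0.0280 FPKM in differentiated and 0 in undifferentiated cells) and ESR2 (0.175 and 0.141 FPKM) were themselves low. With so few genes in the clock and estrogen receptor lists, their counts are no result about the targets. Of 6 tested genes that make or clear receptor ligands 2 were called lower and 0 higher in the authors' deposited table, a share near the 28.0% of all genes. They were the oxysterol hydroxylase gene CYP7B1 (-2.53) and the steroid sulfatase gene STS (-1.82). Among the called genes of these target and ligand lists, SGK1, ACADVL, ARNTL and MYB were called under each of the 3 other scalings, CYP7B1 and STS under quantile normalization alone, and the rest under none. The clock repressor gene CRY1 was called higher with both equal sums.

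**Figure D5:**
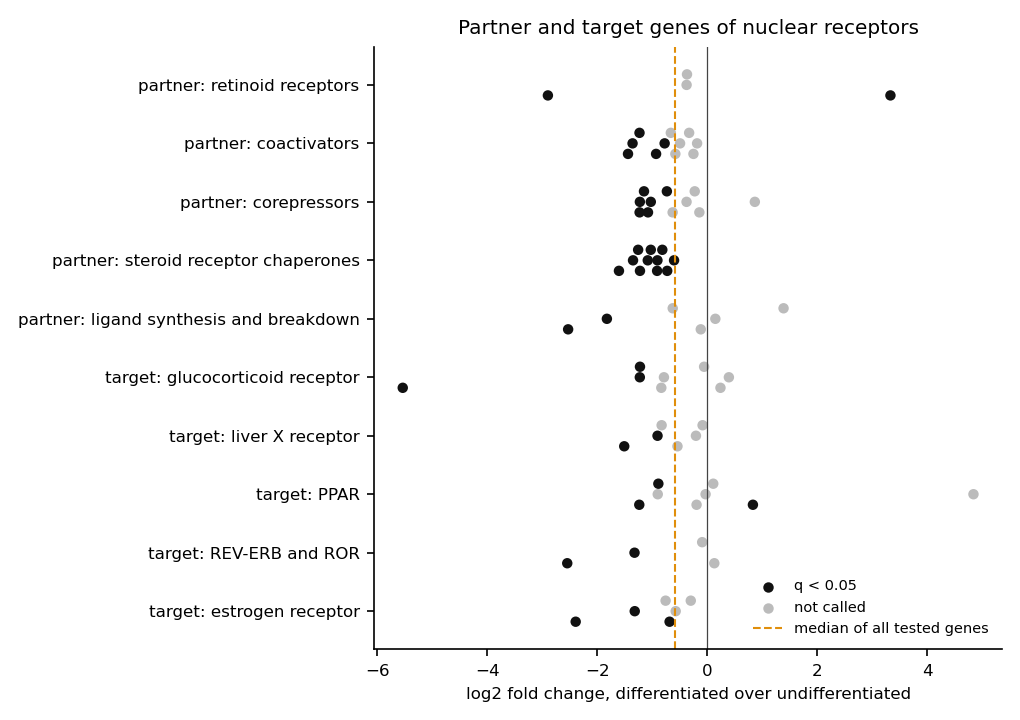
Log2 fold change (x axis, differentiated over undifferentiated) of the tested partner and target genes of nuclear receptors, 1 list to a line, with black points called at q below 0.05 and grey points not called. The dashed line is the median of all tested genes, -0.58. The 11 chaperone genes all lie left of it, and the retinoid receptors hold both RARB on the right and RXRA on the left.

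The line's identity was checked against marker genes. All 10 sympathoadrenal neuroblastoma markers were tested, and they summed to 655 FPKM in differentiated cells and 845 FPKM in undifferentiated cells. Of these 10, the authors' deposited table called 5 lower and 0 higher (28.0% and 2.43% of all genes), and with an equal sum 3 were called lower and 3 higher (2.52% and 7.87%). Markers of hepatocytes summed to 0.171 FPKM in differentiated cells and 0.159 FPKM in undifferentiated cells (5 genes), and those of the adrenal cortex to 0.134 FPKM and 0.168 FPKM in the same groups (4 genes), with CYP11A1 and CYP17A1 at 0 in both. Fibroblast markers (6 genes) summed to 27.3 FPKM in differentiated cells and 29.4 FPKM in undifferentiated cells, sums that hold members moving apart. LUM, the highest of them in both groups, stood at 17.95 FPKM in differentiated cells and 12.5 FPKM in undifferentiated cells in the authors' deposited table (q = 0.173). It lay above the median gene and was called higher under each of the 3 other scalings. DCN (log2 fold -1.96, q = 0.00727) and PDGFRB (-0.95, q = 0.00817) were called lower by the authors' deposited table, though not relative to the median gene or under those scalings. Their part in the receptor results was not tested. Glial markers (5 genes) summed to 3.38 FPKM and 4.63 FPKM, and leukocyte markers (4 genes) to 1.80 FPKM and 0.942 FPKM, in the same order of groups. In these bulk libraries, fewer cells that express a gene and less RNA per cell cannot be told apart. The listed locus is shared with another row for 12 of the 39 receptors, none of them among the 4 called.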

How the data were processed

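RNA was sequenced from 2 differentiated and 2 undifferentiated libraries of SH-SY5Y cells after removal of ribosomal RNA, per the labels' protocols. The submitters' processing notes name TopHat2 2.0.8, Cufflinks 2.0.2 and the build hg19. Per the file headers, the columns used are the authors' FPKM of each group, their log2 fold, the statistic behind it, and its p-value and q-value. The sources used here do not state the scaling, the annotation or any use of strand. A normal p computed from the statistic matched the deposited p-value in all 12750 usable rows (tolerance 0.001), and adjusting those p by Benjamini-Hochberg returned the deposited q-value to within 1.48e-06.

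The table holds no values per library, so no test over libraries was run and no counting interval can be given. The implied standard error is the size of the log2 fold over that of the statistic. It carries over whatever variance model lies behind that statistic. The comparison with the median gene was run first on simulated folds with a known shift, drawn with the same implied errors. Because the draw and the test share these errors, that run cannot show whether they match the spread between libraries. Receptor genes and partner lists were chosen with earlier results of these data known. Values are printed for each receptor tested or with at least 0.1 FPKM, and for up to 3 called genes of each partner list. Starts of hg19 loci were raised by 1, since the listed span then equalled the reference gene length in 2043 loci, against 268 as listed. Promoter windows came from RefSeq (GRCh38.p14), matched by symbol for 35 of 39 receptors. The software was scipy 1.17.1, pandas 2.3.3, numpy 2.4.6 and matplotlib 3.10.9 under Python 3.11.15. Pseudocounts, level filters, a stricter q, other centres and other scalings were tried as alternatives. Small RNAs, 70.4% of the summed FPKM in differentiated and 72.2% in undifferentiated cells, are rows with a small RNA biotype or name (snoRNA, snRNA, miRNA and the like). Some marker genes are not reported here.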

Additional observations from a re-analysis of the deposited data

How the results depend on the processing

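The count of receptors called lower was 4 with a mean of at least 1 FPKM (32.2% of all genes) and with q below 0.01 (17.1%). It was 5 of 9 where the mean had to reach 5 FPKM (47.6% of all genes), as NR2C1 then passed with an adjusted p of 0.0458. The count became 2 under each of equal sum, equal sum without small RNAs and quantile normalization (2.52%, 3.24% and 4.04% of all genes). Counts relative to the median gene were 2 below and 0 above under every filter and centre tried. The median log2 fold of the 19 receptors turned to 0.25 with an equal sum and 0.16 with an equal sum without small RNAs, beside medians of 0.20 and 0.11 over all genes, since these scalings add 1 constant to every fold. It was -0.09 with quantile normalization (-0.03 over all genes) and -0.96 over the 9 receptors with a mean of at least 5 FPKM (-0.69 over all such genes). With an equal sum, then with an equal sum without small RNAs, the log2 folds of HNF4G became 0.50 and 0.41, of NR1H2 0.12 and 0.0325, of NR3C1 0.53 and 0.44, of PPARA 0.41 and 0.32, and of THRA 0.25 and 0.16. The log2 fold of PPARD became 0.0731 with an equal sum, and that of NR3C1 became 0.19 with quantile normalization. None of these 6 genes was called under any scaling. The log2 folds of RORB and ESRRG, -5.66 and -3.17 as deposited, became -4.88 and -2.39 with an equal sum. With a pseudocount of 1 FPKM they became -3.595 and -2.90. With a pseudocount of 3 FPKM the log2 folds of RORB, ESRRG and PPARG became -2.42, -2.50 and 0.23. Of 74 tested partner and target genes, 2 were called higher and 36 lower, against 2.43% and 28.0% of all genes. The higher count became 1 with a mean of at least 5 FPKM (1.86% of all genes), 1 with q below 0.01 (1.33%), 4 with an equal sum (7.87%) and 4 without small RNAs (6.38%). The lower count became 23 with a mean of at least 5 FPKM (47.6%), 5 with an equal sum (2.52%), 6 without small RNAs (3.24%) and 8 with quantile normalization (4.04%). No paired analysis was possible because the columns hold 1 value per group and no replicate number, and for the same reason no replicate could be left out.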
